A study of Mus musculus with 6 samples.

Results

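The axon guidance families are the semaphorins with their plexin and neuropilin receptors, the ephrins with the Eph receptors, the netrins with the Unc5 receptors and the Slits with the Robo receptors. Their genes were chosen by symbol in the GENCODE M21 annotation, and 61 of the 14548 genes in the expression files belonged to them. Another 8 protein-coding genes whose symbols match the same patterns, among them *Ephb1*, *Slit3* and *Robo4*, were not analysed here. The measured members comprised 20 semaphorins, 9 plexins, 2 neuropilins, 10 Eph receptors, 8 ephrins, 3 netrins, 4 Unc5 receptors, 2 Slits and 3 Robo receptors.

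In the nervous system these secreted or membrane-bound ligands steer growing axons by attraction and repulsion, and the receptors pass the signal to the actin cytoskeleton through small GTPases. The same proteins act outside neurons wherever cells migrate, repel each other or adhere. In skeletal muscle, semaphorins and ephrins are known as cues between muscle cells and nerves and as guides of migrating precursor cells, and netrins have been tied to the fusion of myoblasts.

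RNA-seq was available for C2C12 cells, a mouse line of myoblasts that can differentiate into muscle fibres in culture. There were 3 libraries with the genotype WT and 3 with the genotype MSTN-KO, in which the gene for myostatin, a secreted brake on muscle growth, had been cut in its last exon with CRISPR/Cas9. The MSTN-KO cells are the line C11, so differences between this line and the WT cells cannot be told apart from the effect of the knockout, although C11 is also the strain given for WT. Nothing says that the 3 libraries of a group came from separate cultures, and p-values therefore measure only the spread between these libraries.

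The files hold FPKM, the fragments of a gene scaled by its length and by the size of the library, which summed to 723705 to 764524 in WT and to 856314 to 999579 in MSTN-KO. *Mstn* was at or below 0.0586 FPKM in all 6 libraries and gave no check of the labels. Of 9 myoblast markers, 8 had a row and all 8 had a mean of at least 1 FPKM, with *Cdh15* not analysed here. Their sum was 1151 to 1510 FPKM in WT and 644 to 782 FPKM in MSTN-KO. The 17 measured markers of muscle differentiation summed to 1333, 1398 and 468 FPKM in WT replicates 1, 2 and 3 and to between 76.3 and 122.5 FPKM in MSTN-KO, so WT replicate 3 stood apart from the other WT libraries. In MSTN-KO replicate 3, long transcripts of low GC content were lower than in the other MSTN-KO libraries, by a median of -0.35 on the log2 scale over 1735 genes. The 5 measured endothelial markers summed to at most 0.183 FPKM in any library. Defining neuronal markers such as *Tubb3*, *Snap25* and *Rbfox3* were not analysed here, and the sum of the 6 neuronal markers with a row was 273 to 314 FPKM in WT and 422 to 497 FPKM in MSTN-KO. Most of this sum came from *Stmn2*. Of the 4 tested, *Stmn2* and *Gap43* were higher (limma adjusted p of 0.00402 and 0.0065) and *Nefl* and *Nefm* were not called (0.142 and 0.394). *Syp* was at most 0.232 FPKM and *Syt1* at most 0.0103 FPKM in any library. The 2 blood cell markers with a row summed to at most 2.45 FPKM, the 6 glial markers to at most 6.48 FPKM, and the 8 fibroblast markers to 357 to 493 FPKM in WT and 554 to 619.5 FPKM in MSTN-KO. Most of the fibroblast sum came from *Col3a1*, which rose (log2 fold change 0.68, adjusted p = 0.00765 in limma), and *Col1a2*, while *Dcn* and *Postn* fell (-0.73 and -0.82, adjusted p of 0.045 and 0.0150 in limma), so that 1 of the 5 tested markers was higher and 2 were lower. The part of the differentiation markers and of the other markers in the results below was not tested.

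MSTN-KO was compared with WT in 1 limma fit of log2(FPKM + 1) over the 10837 genes that reached 1 FPKM in 1 library or more. In that fit 17.7% of all genes had a Benjamini-Hochberg adjusted p under 0.05. Of the 61 members, 41 passed the filter, of which 14 (34.1%) were below that threshold. The 5 members that rose were *Ephb6*, *Sema4a*, *Nrp2*, *Sema6b* and *Plxnd1* (12.2% of the tested members, against 8.78% of all tested genes). The 9 that fell were *Epha1*, *Sema3d*, *Plxnb1*, *Epha4*, *Robo1*, *Sema4f*, *Sema4c*, *Ephb3* and *Epha2* (22.0%, against 8.96% of all tested genes). Receptors and ligands were among both the rises and the falls, and the ephrins were the largest family without a call. The median log2 fold change was -0.25 over the tested members and -0.00078 over all tested genes. With every library brought to a sum of 1000000, the median of all genes shifted by -0.26, and 3 members were higher and 15 lower at an adjusted p under 0.05. Over all tested genes the same scaling gave 3.23% higher and 21.8% lower, so calls moved towards falls over all genes too. The members that this scaling added to the falls were *Plxna1*, *Ephb4*, *Efna1*, *Efna2*, *Efnb1* and *Unc5b*, at -0.27 to -0.46 relative to the shift. The tested members have longer and more GC-rich transcripts than the tested genes as a whole, with medians of 4793 against 3361 bases and of 56.5% against 49.9% GC. After a correction of each library for length and GC content, 7 members were higher and 14 lower by the same threshold, when 22.8% of all tested genes passed it, 10.8% as higher and the rest as lower. The added 1 makes fold changes of genes with few FPKM look smaller than they are.

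**Figure D1:**
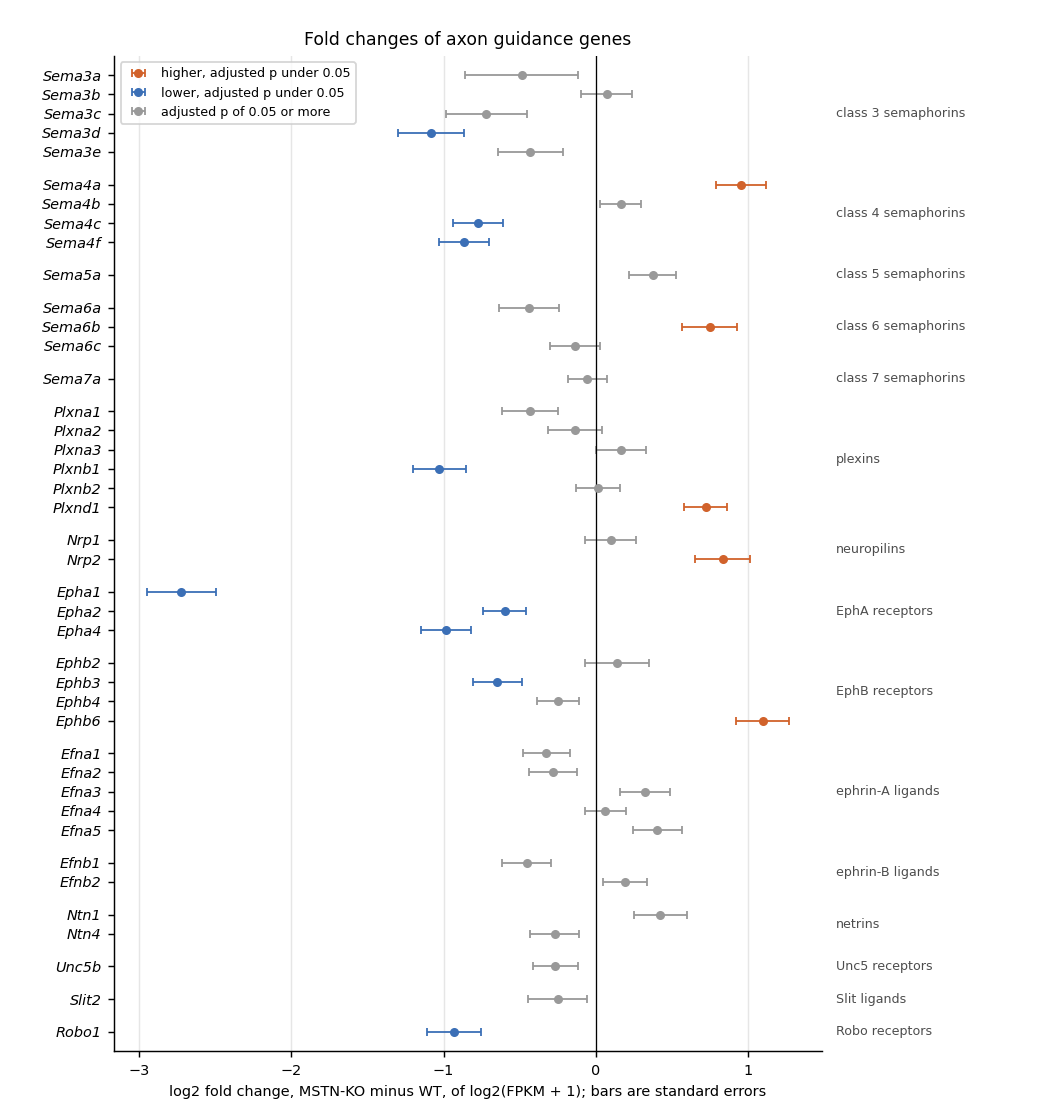
The log2 fold change of log2(FPKM + 1), MSTN-KO minus WT, is plotted for the 41 tested axon guidance genes in order of family, with bars for the limma standard error. The 14 coloured points have an adjusted p under 0.05, and *Epha1* lies farthest from 0, at -2.72.

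The Eph receptors are the largest family of receptor tyrosine kinases, and they bind ephrins held on the surface of neighbouring cells. Of the 10 measured Eph receptors 7 were tested, and 1 rose, 4 fell and 2 had an adjusted p above the threshold. Among the EphA receptors, which mainly bind the ephrins anchored by a lipid, all 3 tested genes fell. The summed EphA level was 106, 97.7 and 74.98 FPKM in WT replicates 1, 2 and 3 and 50.7, 38.6 and 46.8 FPKM in the MSTN-KO replicates, and the groups did not overlap.

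*Epha1* had 33.1, 32.1 and 16.0 FPKM in WT replicates 1, 2 and 3 and 3.38, 2.75 and 3.08 FPKM in the MSTN-KO replicates. Every MSTN-KO library was far below every WT library, and WT replicate 3 lay between the other WT libraries and the knockout. Its mean was 8.83-fold lower in MSTN-KO, a log2 change of -2.72 ± 0.23 (SE) and adjusted p = 3.87e-06. The value of WT replicate 3 differed by -0.98 on the log2 scale from the mean of the other WT libraries. The differentiation markers were lower in the same replicate, with a median of -1.11 relative to the mean of all 3 WT libraries, which is a different baseline. By the first measure *Ephb6*, which rose in MSTN-KO, was at -0.55, and *Sema4f*, which fell, was at 0.35. A link between *Epha1* and the differentiation markers was not tested. Without WT replicate 3 the log2 fold change of *Epha1* was -3.05. In bulk RNA, fewer cells that express a gene and less RNA of it per cell cannot be told apart.

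*Epha2* was the most abundant Eph receptor, at 70.4, 63.8 and 57.3 FPKM in WT and 47.0, 35.4 and 43.5 FPKM in MSTN-KO. The groups did not overlap, and the log2 fold change was -0.60 ± 0.14 (SE), with adjusted p = 0.0109. *Epha4*, a receptor that binds ephrins of both the A and the B class, had 1.83, 1.71 and 1.58 FPKM in WT and 0.398, 0.433 and 0.274 FPKM in MSTN-KO. Its log2 fold change was -0.98 ± 0.16 (SE), with adjusted p = 0.00143, and it passed the filter only through the WT libraries, in which it was higher. *Epha4* lies on chromosome 1, where the median log2 fold change of the 627 tested genes was -0.25. The fall of *Epha1* was steeper than that of *Epha2*, so the makeup of the family differed between the groups. *Epha2* held 65.3% to 76.4% of the summed EphA FPKM in the WT libraries and 91.7% to 92.8% in the MSTN-KO libraries, while the share of *Epha1* was 21.4% to 32.9% and 6.58% to 7.11%.

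The EphB receptors mainly bind the ephrins that span the membrane, and their tested genes differed in direction. *Ephb6*, a receptor whose kinase domain is inactive, had 13.5, 10.1 and 7.63 FPKM in WT and 24.96, 21.5 and 22.02 FPKM in MSTN-KO. The lowest MSTN-KO library was above the highest WT library, with a log2 change of 1.09 ± 0.18 (SE) and adjusted p = 0.00116. *Ephb3* had 5.05, 4.02 and 3.70 FPKM in WT and 2.60, 2.16 and 2.27 FPKM in MSTN-KO, again without overlap. Its log2 fold change was -0.65 ± 0.16 (SE), with adjusted p = 0.0154, and the call was lost without WT replicate 1 (adjusted p = 0.0577) or without WT replicate 2 (0.0511).

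*Ephb4*, a receptor for ephrin-B2 known from the forming blood vessel, had 23.0, 18.5 and 17.4 FPKM in WT and 15.7, 16.5 and 16.6 FPKM in MSTN-KO. The MSTN-KO libraries were all below the WT libraries, but the gap was small, and the log2 fold change of -0.25 had an adjusted p of 0.232 in limma. Corrected for length and GC content it was at -0.33 with an adjusted p of 0.0265, and with a sum of 1000000 at -0.53 (adjusted p = 0.0240), or -0.27 relative to the shift of all genes. *Ephb2* ranged from 0.776 to 2.01 FPKM in WT and from 1.18 to 1.64 FPKM in MSTN-KO, within the spread between replicates. In every WT library *Ephb4* was the highest EphB receptor, with 52.8% to 58.6% of the summed EphB FPKM. In every MSTN-KO library *Ephb6* was, with 51.8% to 56.2%.

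**Figure D2:**
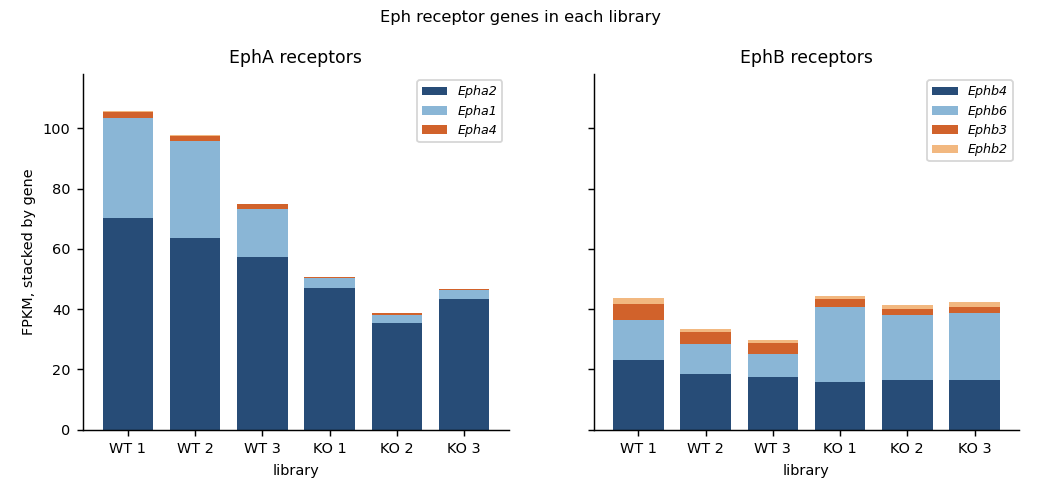
Stacked bars give the FPKM of each Eph receptor gene in WT replicates 1 to 3 and MSTN-KO (KO) replicates 1 to 3, with the EphA receptors on the left and the EphB receptors on the right. *Epha10*, *Epha7* and *Epha8* are too low to be seen, the share of *Epha1* shrinks from at least 21.4% to at most 7.11%, and *Ephb6* overtakes *Ephb4* in the MSTN-KO libraries.

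*Ephb6* and *Epha1*, the members with the largest rise and the largest fall on this scale, are neighbours within the families. On chromosome 6 (GRCm38) *Ephb6* spans 41605482 to 41620509 and *Epha1* spans 42358487 to 42373268, with 738 kb between them. The 504 tested genes of chromosome 6 had a median log2 fold change of 0.058. Their RefSeq promoters (GRCm38.p6, 250 bases before to 50 bases after the start) are shown together with those of *Nrp2* and *Plxnd1*, the receptor genes of the semaphorin system that rose. Capitals mark the E-box, CANNTG, which reads the same on both strands and is the motif bound by MyoD, myogenin and other basic helix-loop-helix factors. The windows are chr6:42373219-42373518 on the minus strand for *Epha1*, chr6:41605261-41605560 on the plus strand for *Ephb6*, chr1:62703067-62703366 on the plus strand for *Nrp2* and chr6:115994956-115995255 on the minus strand for *Plxnd1*.
Epha1: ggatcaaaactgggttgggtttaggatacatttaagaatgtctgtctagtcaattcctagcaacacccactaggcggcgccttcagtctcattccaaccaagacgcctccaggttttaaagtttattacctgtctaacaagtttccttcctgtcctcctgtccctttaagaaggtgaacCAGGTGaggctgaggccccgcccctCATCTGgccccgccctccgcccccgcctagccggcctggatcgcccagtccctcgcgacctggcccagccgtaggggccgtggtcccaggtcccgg
Ephb6: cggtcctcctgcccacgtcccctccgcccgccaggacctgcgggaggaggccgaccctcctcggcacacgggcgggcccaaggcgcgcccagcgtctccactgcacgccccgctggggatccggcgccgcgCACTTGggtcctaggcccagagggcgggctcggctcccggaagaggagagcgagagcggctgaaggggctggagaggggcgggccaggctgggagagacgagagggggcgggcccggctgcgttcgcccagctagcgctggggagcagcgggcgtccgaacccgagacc
Nrp2: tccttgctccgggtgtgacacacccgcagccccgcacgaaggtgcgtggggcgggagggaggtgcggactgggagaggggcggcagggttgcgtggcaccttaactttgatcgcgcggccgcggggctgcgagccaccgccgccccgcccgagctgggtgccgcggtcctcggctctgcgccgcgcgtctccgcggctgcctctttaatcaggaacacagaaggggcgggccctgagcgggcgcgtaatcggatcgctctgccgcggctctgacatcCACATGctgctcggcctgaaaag
Plxnd1: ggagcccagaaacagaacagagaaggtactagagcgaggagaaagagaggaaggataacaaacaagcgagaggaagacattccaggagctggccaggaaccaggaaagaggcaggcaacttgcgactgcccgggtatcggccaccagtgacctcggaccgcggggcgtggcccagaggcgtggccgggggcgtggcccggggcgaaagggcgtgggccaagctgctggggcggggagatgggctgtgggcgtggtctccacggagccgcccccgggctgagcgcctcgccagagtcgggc

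The *Epha1* window held 2 E-boxes, CAGGTG and CATCTG, and 14 CpG dinucleotides. The *Ephb6* window held 1 E-box and 34 CpG, that of *Nrp2* held 1 and 37, and that of *Plxnd1* held 0 and 23. Promoters were matched for 52 of the 61 members. An E-box was in 27 of these 52 (51.9%), against 72.1% of 27025 promoters of all genes in the table, and the core CAGCTG favoured by the muscle factors, which every count of CANNTG includes, was in 7 (13.5%) against 16.1%. Among members that fell, 6 of 9 promoters held a CANNTG, and among those that rose 2 of 5. The member promoters were rich in CpG, with a median of 23 against 7.

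The ephrins are the membrane-held ligands of the Eph receptors. Of the 8 measured ephrins 7 were tested and 0 had an adjusted p under 0.05 in limma, while *Efna5* and *Efnb1*, named after their values were seen, had an unadjusted p under 0.05 (0.0261 and 0.0140). The summed ephrin-A level was 35.25, 37.6 and 39.1 FPKM in WT and 33.1, 36.25 and 37.6 FPKM in MSTN-KO, so it overlapped between the groups while the summed level of the EphA receptors did not. *Efna4*, the highest ephrin-A, had 12.7, 16.0 and 13.5 FPKM in WT and 14.3, 14.6 and 15.2 FPKM in MSTN-KO (log2 fold change 0.061, limma adjusted p = 0.787). *Efna1* had 12.3 to 15.9 FPKM in WT and 9.45 to 12.2 FPKM in MSTN-KO, a log2 change of -0.33 (adjusted p = 0.160 in limma) that reached an adjusted p of 0.0433 once length and GC content were corrected for. *Efna1*, *Efna3* and *Efna4* follow each other on chromosome 3, from 89271733 to 89338028, with gaps of 32.8 and 10.4 kb. Their log2 fold changes were -0.33, 0.32 and 0.061.

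*Efna5* was higher in every MSTN-KO library, at 2.69 to 3.13 against 1.61 to 2.24 FPKM, but its log2 fold change of 0.40 had an adjusted p of 0.1005 in limma. *Efnb1*, whose human gene is mutated in craniofrontonasal syndrome, was lower in every MSTN-KO library, at 3.998 to 4.75 against 5.59 to 7.77 FPKM (log2 fold change -0.45, limma adjusted p = 0.0675). Both passed once length and GC content were corrected for, with adjusted p of 0.0167 and 0.0110. *Efnb2*, a ligand of EphB4, had 17.5, 16.0 and 18.0 FPKM in WT and 19.0, 23.2 and 17.3 FPKM in MSTN-KO, and the groups overlapped (log2 fold change 0.19, limma adjusted p = 0.375).

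**Figure D3:**
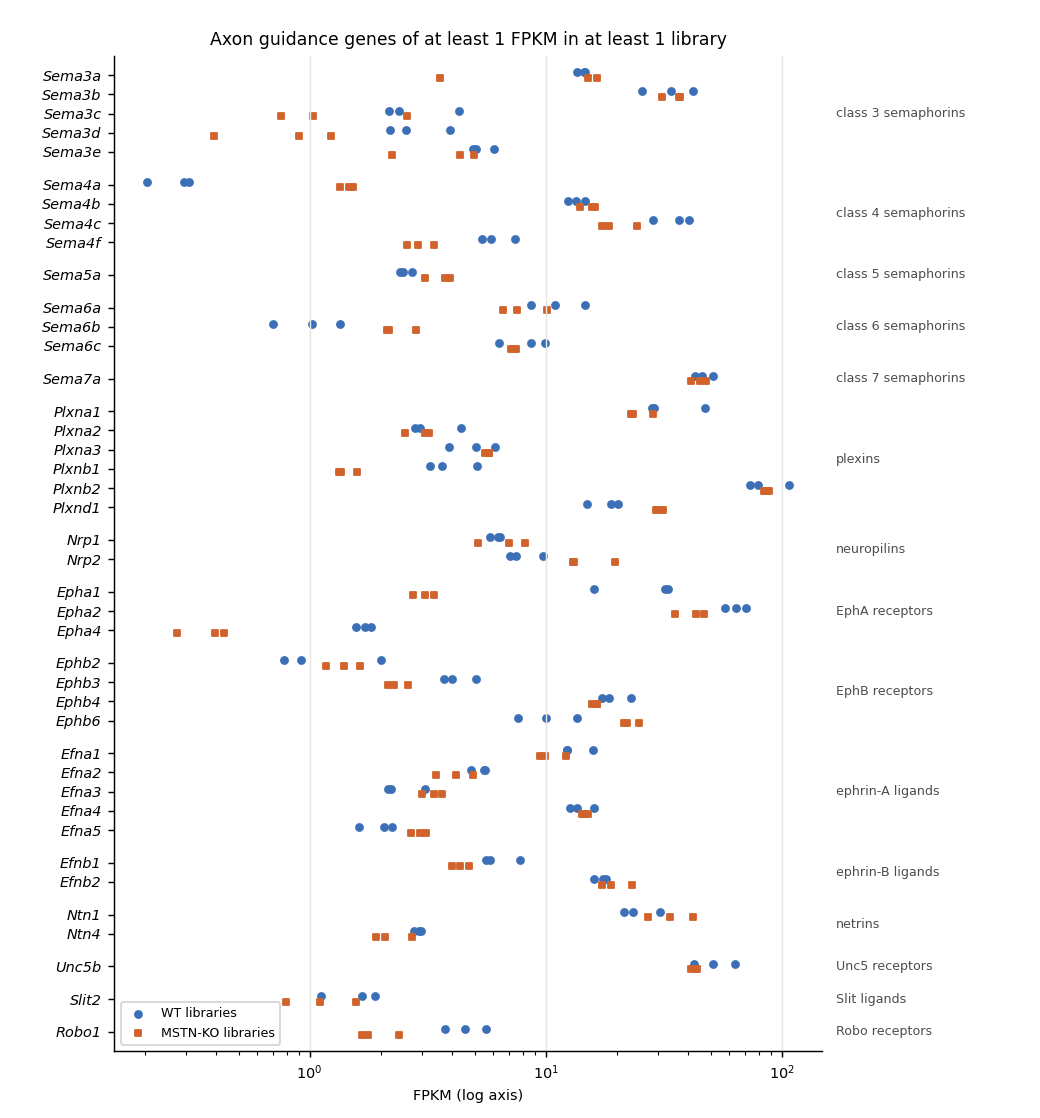
FPKM of the 41 tested axon guidance genes are plotted on a log axis by family, with 1 point for each of the 3 WT (circles) and 3 MSTN-KO libraries (squares). Groups are apart for *Epha1*, *Epha4* and *Sema4a*, overlap for the highest gene, *Plxnb2*, and 1 MSTN-KO point of *Sema3a* lies far from the others.

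The semaphorins share a sema domain and signal mainly through plexins. Of 20 measured semaphorins 14 were tested, of which 2 rose, 3 fell and 9 had an adjusted p above the threshold, with a median log2 fold change of -0.285. Class 3 semaphorins are secreted and most need a neuropilin as a co-receptor, while those of classes 4 to 6 span the membrane and Sema7a is anchored by a lipid.

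*Sema3b* was the highest class 3 semaphorin, at 42.2, 33.9 and 25.6 FPKM in WT and 31.3, 36.8 and 37.1 FPKM in MSTN-KO, and the groups overlapped (log2 fold change 0.071, limma adjusted p = 0.797). *Sema3d* had 3.93, 2.55 and 2.20 FPKM in WT and 0.898, 1.23 and 0.393 FPKM in MSTN-KO. It fell by 1.08 on the log2 scale (SE 0.22, adjusted p = 0.00452 in limma) without overlap between the groups. *Sema3a*, the classical repellent of sensory axons that muscle precursor cells also secrete, had 14.5, 14.7 and 13.6 FPKM in WT and 15.1, 16.6 and 3.56 FPKM in MSTN-KO. The first pair of MSTN-KO libraries lay above the WT libraries and MSTN-KO replicate 3 was far below all others. The log2 fold change of -0.49 (standard error 0.37) had a limma adjusted p of 0.386, and it was 0.14 (adjusted p = 0.519) without that library.

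*Sema3d*, *Sema3a*, *Sema3e* and *Sema3c* lie in this order within one stretch of chromosome 5, from 12383385 to 17730268, and all 4 were lowest in MSTN-KO replicate 3. *Sema3e*, a ligand that binds plexin-D1 without a neuropilin, had 4.94 to 6.05 FPKM in WT and 4.98, 4.36 and 2.24 FPKM in MSTN-KO. *Sema3c* had 2.17 to 4.30 FPKM in WT and 1.03, 2.58 and 0.760 FPKM in MSTN-KO. Neither had an adjusted p under 0.05 (0.176 and 0.0769 in limma). On the log2 scale MSTN-KO replicate 3 differed from the mean of the other MSTN-KO libraries by -0.562 for *Sema3d*, -1.88 for *Sema3a*, -0.802 for *Sema3e* and -0.615 for *Sema3c*. The 4 transcripts are 5491 to 6861 bases long with 39.2% to 42.7% GC, and genes with the longest transcripts (4777 bases or more) and a GC content under the median had a median difference of -0.35 in the same library. After the length and GC correction the differences were -0.109, -1.46, -0.374 and -0.246. For *Sema3a* the uncorrected difference was one of the lowest in the library, with 5 of 10837 tested genes, *Sema3a* included, at or below it. *Cacna2d1*, which lies between *Sema3e* and *Sema3c*, is 7436 bases long and had 19.9 FPKM in MSTN-KO replicate 3 against 21.01 to 22.8 FPKM in the other MSTN-KO libraries. The difference of *Cacna2d1* in that library was -0.135 on the log2 scale, and 0.32 after the length and GC correction.

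**Figure D4:**
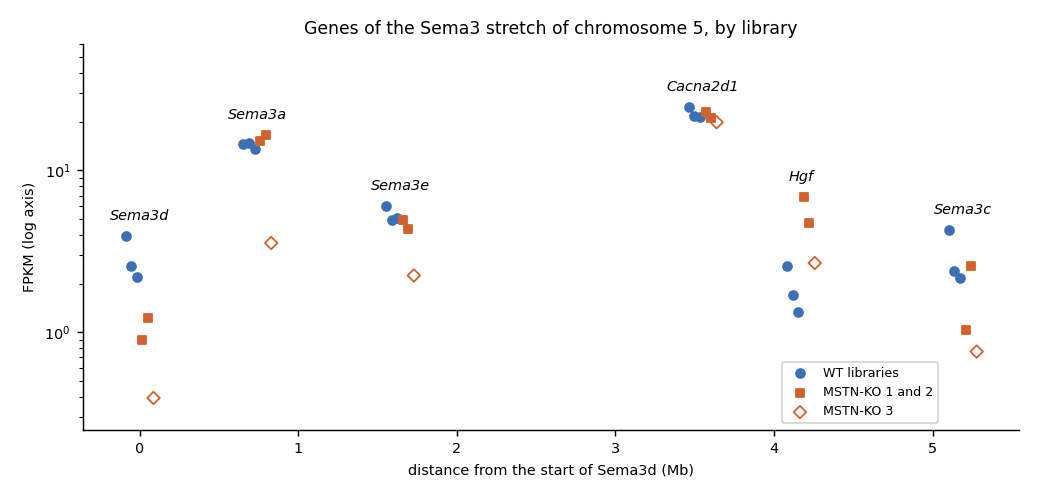
FPKM (log axis) of genes with at least 1 FPKM in the stretch of chromosome 5 that holds 4 class 3 semaphorins are plotted against the distance of their start from that of *Sema3d* in Mb, with points of the same gene moved apart sideways. MSTN-KO replicate 3 (open diamonds) is at 3.56 FPKM for *Sema3a*, where the other 5 libraries are at 13.6 FPKM or more, and it is the lowest library for each Sema3 gene.

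Among the class 4 semaphorins the most and the least abundant tested genes changed in opposite directions. *Sema4c*, a ligand of plexin-B2 that has been tied to myoblast differentiation, had 40.3, 36.7 and 28.5 FPKM in WT and 17.4, 24.3 and 18.6 FPKM in MSTN-KO. It fell without overlap between the groups, with a log2 change of -0.78 ± 0.16 (SE) and adjusted p = 0.00603, and it too lies on chromosome 1. *Sema4f* fell from 5.38, 5.88 and 7.43 FPKM in WT to 2.59, 2.89 and 3.36 FPKM in MSTN-KO. Its log2 fold change was -0.87 ± 0.16 (SE), with adjusted p = 0.00323, and unlike *Epha1* and *Sema4c* it was highest in WT replicate 3.

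*Sema4a*, better known as a ligand on immune cells, had 0.294, 0.307 and 0.204 FPKM in WT and 1.35, 1.53 and 1.47 FPKM in MSTN-KO. The mean was 5.40-fold higher in MSTN-KO without overlap, a log2 change of 0.95 ± 0.16 (SE) and adjusted p = 0.00178. It passed the filter only through the MSTN-KO libraries, in which it was higher, and even there it was among the low members. *Sema4b* was at 12.5 to 14.7 FPKM in WT and at 14.03 to 16.1 FPKM in MSTN-KO (limma adjusted p = 0.424).

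*Sema6b* had 1.35, 1.019 and 0.698 FPKM in WT and 2.18, 2.13 and 2.83 FPKM in MSTN-KO. It was higher in every MSTN-KO library, with a log2 change of 0.75 ± 0.18 (SE) and adjusted p = 0.0130, and the adjusted p was 0.0504 without WT replicate 3. *Sema6a*, the highest of its class, had 14.6, 11.001 and 8.65 FPKM in WT and 7.54, 10.2 and 6.61 FPKM in MSTN-KO, with overlap (limma adjusted p = 0.136). *Sema6c* had an adjusted p of 0.585 in limma, at -0.14 on the log2 scale.

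*Sema7a*, which can bind plexin-C1 and integrins, was the most abundant semaphorin. It had 51.0, 42.8 and 45.8 FPKM in WT and 41.2, 48.0 and 44.9 FPKM in MSTN-KO, and the difference was within the spread between replicates (log2 fold change -0.057, standard error 0.13, limma adjusted p = 0.786). *Plxnc1*, its plexin, was at most 0.0432 FPKM in any library. *Sema5a* was higher in every MSTN-KO library, at 3.93, 3.76 and 3.09 against 2.71, 2.49 and 2.42 FPKM. Its log2 fold change of 0.37 had an adjusted p of 0.113 in limma, and of 0.0104 with both length and GC content corrected for.

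Plexins are the transmembrane receptors of the semaphorins and carry a GTPase-activating domain inside the cell. Of 9 measured plexins 6 were tested, of which 1 rose, 1 fell and 4 had an adjusted p above the threshold. *Plxnb2* was the most abundant member of all the families, at 108, 79.01 and 73.5 FPKM in WT and 84.4, 88.1 and 86.5 FPKM in MSTN-KO. The MSTN-KO libraries lay within the WT range, and the log2 fold change was 0.012 ± 0.15 (SE), with adjusted p = 0.966. *Plxnb2* held between 56.1% and 58.2% of the summed plexin FPKM in all 6 libraries.

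*Plxnb1*, the receptor of Sema4d, had 5.11, 3.65 and 3.25 FPKM in WT and 1.36, 1.59 and 1.33 FPKM in MSTN-KO. It fell without overlap between the groups, with a log2 change of -1.03 ± 0.18 (SE) and adjusted p = 0.00166. *Plxnd1*, the receptor of Sema3e, had 18.9, 20.3 and 15.03 FPKM in WT and 31.6, 29.8 and 29.3 FPKM in MSTN-KO. It rose without overlap, with a log2 change of 0.72 ± 0.14 (SE) and adjusted p = 0.00383. Among the plexin-A genes, *Plxna1* had 47.3, 28.7 and 28.3 FPKM in WT and 23.0 to 28.5 FPKM in MSTN-KO, with overlap, and an adjusted p of 0.124 in limma, at -0.43 on the log2 scale. Its adjusted p was 0.0438 with length and GC content corrected for (log2 fold change -0.44) and 0.0328 with a sum of 1000000 (-0.71, or -0.45 relative to the shift of all genes). *Plxna2* and *Plxna3* had log2 fold changes of -0.14 and 0.16 (limma adjusted p of 0.634 and 0.526).

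Neuropilins are co-receptors for class 3 semaphorins and for VEGF. *Nrp2* had 9.76, 7.47 and 7.04 FPKM in WT and 19.6, 13.2 and 13.1 FPKM in MSTN-KO. It rose without overlap, with a log2 change of 0.83 ± 0.18 (SE) and adjusted p = 0.00680, although the median of the tested genes on its chromosome 1 was below 0. *Nrp1* had 6.31, 6.43 and 5.84 FPKM in WT and 6.99, 8.18 and 5.19 FPKM in MSTN-KO (log2 fold change 0.096, limma adjusted p = 0.721). With each library scaled to a sum of 1000000, the adjusted p of *Plxnd1* and *Nrp2* was 0.0550 and 0.0627. Relative to the common shift of that scaling, their log2 fold changes were 0.70 and 0.83.

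Netrins are laminin-like secreted proteins, and Unc5 receptors carry their repulsive signal. *Ntn1* had 30.6, 23.6 and 21.6 FPKM in WT and 27.2, 42.1 and 33.6 FPKM in MSTN-KO, with overlap (log2 fold change 0.42, limma adjusted p = 0.109). *Ntn4*, a netrin of basement membranes, was at 2.78 to 2.97 FPKM in WT and at 1.91 to 2.71 FPKM in MSTN-KO, and the log2 fold change of -0.27 had a limma adjusted p of 0.258. *Unc5b* held at least 99.8% of the summed Unc5 FPKM in each library. It had 63.1, 51.0 and 42.7 FPKM in WT and 43.3, 41.2 and 43.8 FPKM in MSTN-KO. The WT libraries spread wider than the MSTN-KO libraries, and the groups overlapped (log2 fold change -0.27, limma adjusted p = 0.223). Corrected for length and GC content, its log2 fold change was -0.32 with an adjusted p of 0.0254.

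Slits are secreted ligands that repel cells through Robo receptors. *Slit2* had 1.89, 1.68 and 1.12 FPKM in WT and 1.57, 1.11 and 0.792 FPKM in MSTN-KO, with overlap (log2 fold change -0.25, limma adjusted p = 0.386). *Robo1* had 5.57, 4.56 and 3.75 FPKM in WT and 1.77, 2.39 and 1.66 FPKM in MSTN-KO. It fell without overlap between the groups, with a log2 change of -0.93 ± 0.18 (SE) and adjusted p = 0.00319. *Robo1* held between 96.3% and 99.1% of the summed Robo FPKM in all 6 libraries.

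For each of the 14 members with a call, the groups did not overlap, and the two-sided exact permutation test of the 6 FPKM values gave p = 0.1, the smallest that 3 libraries against 3 allow. Of the 41 tested members, 7 were higher in every MSTN-KO library and 13 lower, where 19.3% and 18.1% of all tested genes were. The members' share was below that of all genes for rises and above it for falls. Genes with a log2 fold change beyond 1 or -1 and an unadjusted p under 0.05 in a limma fit are called DEGs. In the main fit *Ephb6* was upregulated (1 member, background 1.21% of tested genes) and *Epha1*, *Sema3d* and *Plxnb1* were downregulated (3 members, background 2.3%). Over all tested genes, 131 were upregulated and 249 downregulated. With a pseudocount of 0.1 the members gave 3 upregulated and 7 downregulated DEGs. The share of all genes at that pseudocount is not given, and the backgrounds above are those of the main fit only. The fold and p limits are those of the paper, which used other software, so these calls are not its gene list. The paper names axon guidance as the top pathway of its upregulated genes. That enrichment was not tested here.

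The 20 members below 1 FPKM in every library were not tested. Of these, 8 were under 0.1 FPKM in every library, including *Epha8*, *Plxnc1*, *Unc5a*, *Unc5c*, *Slit1* and *Robo3*, and 11 were listed at 0 in at least 1 library. The groups did not overlap for 7 of the 20, with 6 lower in MSTN-KO and 1 higher, against 14.2% and 6.52% of all 3711 genes below the filter. *Sema4d*, the ligand of plexin-B1, had 0.634, 0.469 and 0.616 FPKM in WT and 0.121, 0.290 and 0.222 FPKM in MSTN-KO, the same direction as the fall of *Plxnb1*. *Sema3g* had 0.241, 0.284 and 0.185 FPKM in WT and 0.0779, 0.0768 and 0.103 FPKM in MSTN-KO. *Sema4d* lies on chromosome 13 and *Sema3g* on chromosome 14, where the median log2 fold changes of the tested genes were -0.34 and -0.29. The other lower members were *Plxna4*, *Plxnb3*, *Epha7* and *Unc5c*, and *Sema4g* was the higher one, at 0.136 to 0.184 FPKM in WT and 0.212 to 0.264 FPKM in MSTN-KO.

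Other genes of the axon guidance pathway were listed by role, as further ligands, co-receptors and adhesion partners or as signalling proteins inside the cell, and 81 of the 111 listed genes were tested. Of these, 9 rose, 18 fell and 54 had an adjusted p above the threshold, with a median log2 fold change of -0.136. The share that rose, 11.1%, was near the 8.78% of all tested genes, and the share that fell was 22.2% against 8.96%. With a sum of 1000000, 3 were higher and 36 lower, when 3.23% of all tested genes were higher and 21.8% lower. Among the ligands and partners 6 rose and 7 fell of 26 tested, and among the signalling proteins 3 rose and 11 fell of 55. One of the 3 was *Pdk1*, a mitochondrial kinase of pyruvate dehydrogenase rather than a guidance protein.

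The largest rise of the list was that of *Cxcl12*, a chemokine that attracts migrating cells and axons. It had 5.11, 4.60 and 6.48 FPKM in WT and 39.6, 29.6 and 26.4 FPKM in MSTN-KO, a log2 change of 2.35 ± 0.17 (SE) and adjusted p = 1.15e-06. Both of its receptors fell, and both of their genes lie on chromosome 1, where the median log2 fold change of the tested genes was -0.25. *Cxcr4* had 23.7, 19.8 and 19.8 FPKM in WT and 9.43, 10.1 and 12.5 FPKM in MSTN-KO (log2 fold change -0.93, limma adjusted p = 0.00101), and *Ackr3*, the scavenging receptor, had 42.5 to 45.5 and 19.5 to 37.1 FPKM (log2 fold change -0.63, limma adjusted p = 0.0344).

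*Gas1*, a co-receptor of Hedgehog ligands, rose from 41.7 to 47.8 FPKM in WT to 109 to 122 FPKM in MSTN-KO (log2 fold change 1.36, limma adjusted p = 7.49e-06). *Lrrc4c*, a membrane partner of netrin-G1, and *Rgma*, a ligand of neogenin, had log2 fold changes of 0.78 and 0.71 (limma adjusted p of 0.00535 and 0.0149). The largest falls were those of *Myl9*, a regulatory light chain of non-muscle and smooth muscle myosin, *Crmp1*, *Ablim1* and *Cxcr4*. *Myl9* had 153 to 167 FPKM in WT and 30.4 to 40.4 FPKM in MSTN-KO (log2 fold change -2.19, limma adjusted p = 2.45e-07). *Crmp1*, a collapsin response mediator that acts downstream of semaphorin 3A, had 1.51, 1.28 and 1.48 FPKM in WT and was listed at 0 in all 3 MSTN-KO libraries. It passed the filter only through the WT libraries, in which it was higher. *Ablim1*, an actin-binding LIM protein, had 9.89 to 13.3 FPKM in WT and 3.83 to 6.28 FPKM in MSTN-KO (log2 fold change -1.03, limma adjusted p = 0.00205).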

How the data were processed

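The authors sequenced RNA of WT and MSTN-KO C2C12 cells on an Illumina HiSeq system and deposited FPKM values per gene, one library per file, for 3 libraries of each group. The submitters' processing notes list Bowtie 0.12.2 and mm8, without a role. The annotation and any gene filter are not given in the sources used here. FPKM divides fragments by gene length and library size, so a few abundant genes can lower all others.

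Libraries were grouped by the titles in the labels. Symbols, positions and transcript lengths came from GENCODE M21 (GRCm38), which 14445 of the 14548 identifiers matched, and positions are given in that build. The members and lists were chosen with earlier results of these data known. Genes that reached 1 FPKM in 1 library or more entered a limma 3.58.1 fit of log2(FPKM + 1), run in R 4.3.3 with eBayes and a trend, with Benjamini-Hochberg adjustment over all 10837 genes. Values are given for members with an adjusted p under 0.05 and the highest member of each family, with ranges or single values for other members, and for the 4 largest rises and falls of the pathway list. *Ackr3* and *Pdk1* were added after their values were seen. The alternatives were a pseudocount of 0.1, other filters, no trend, 3 scalings, a length and GC correction by mgcv 1.9.3, a block for replicate number and leaving out each library. In a test on simulated data of 10650 genes for MSTN-KO against WT, 99% of 200 genes changed by 1 on the log2 scale were recovered and 11 unchanged genes were called. The changed genes were drawn only from the more abundant genes, with normal noise of equal spread in both groups. The test therefore did not cover low members such as *Sema4a* and *Epha4*, or libraries that deviate from their group.

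The number of fragments per library is not in the files. Among genes under 0.1 FPKM in both libraries of a pair, the commonest ratio, within 1%, was shared by 2.3% to 10.3% of genes, so whole reads were not recovered and counting error could not be given. Figures were drawn with matplotlib 3.10.9 in Python 3.11.15.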

Additional observations from a re-analysis of the deposited data

How the results depend on the processing

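Over the 14 members with a call, 223 values under the alternatives kept their direction, and 218 of them their call. The 5 calls lost were those of *Ephb3* without WT replicate 1 or 2, *Sema6b* without WT replicate 3, and *Plxnd1* and *Nrp2* with a sum of 1000000. With the filter on the mean, *Sema4a* had no value. Depth per library is unknown, and members under 1 FPKM rest on few fragments. The cause of the changes below was not tested.

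A sum of 1000000 gave 3 members higher and 15 lower, 0 upregulated and 7 downregulated DEGs among the members, and 3 pathway genes higher and 36 lower. The length and GC correction gave 14 members lower and 0 upregulated DEGs. A pseudocount of 0.1 gave 3 upregulated and 7 downregulated DEGs, and quantile normalization 2 and 1. The share of DEGs over all genes is given only for the main fit, so these counts have no background.

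Leaving out 1 library at a time, 4 to 5 members were higher and 8 to 11 lower, with 0 to 1 upregulated DEGs (0 without WT replicate 3). The downregulated DEGs ranged from 1 (without WT replicate 1 or MSTN-KO replicate 3) to 6 (without MSTN-KO replicate 2), with 5 without WT replicate 3. Pathway genes ranged from 5 (without WT replicate 2 or 3) to 9 higher and from 11 (without MSTN-KO replicate 3) to 22 lower. Calls over all tested genes moved as well, from 9.53% without WT replicate 2 to 22.5% without MSTN-KO replicate 2, against 17.7% in the main fit. The share called lower was 5.61% without WT replicate 2 and 11.6% without MSTN-KO replicate 2, against 8.96% in the main fit. The ranges of member and pathway calls therefore do not show a change particular to these genes.

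Replicates are numbered in both groups, and deviations of same-numbered libraries from their group means correlated with r = -0.0153, -0.128 and -0.142. Between libraries of unlike number r was -0.0691 to 0.161. No shared deviation by number was seen, but whether same-numbered libraries were handled together cannot be told from these values. The replicate block gave 5 members higher and 10 lower, and together with the length and GC correction 7 higher, 11 lower and 0 upregulated DEGs. *Ephb6* was again at 0.9974 with both. Over all tested genes 8.66% were higher and 9.24% lower with the block, and 9.12% and 10.2% with both.

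Some members without a call changed sign. *Plxnb2* was at -0.11 with quantile normalization, -0.067 with scaling to the percentile 75, -0.27 with a sum of 1000000, -0.020 with the length and GC correction and -0.020 with the block too. Leaving out WT replicate 2, WT replicate 3 or MSTN-KO replicate 2 gave -0.045, -0.096 and -0.0025, and leaving out WT replicate 1 gave 0.18. *Sema3b* was at -0.0069 with the percentile 75, -0.21 with the sum, -0.014 with the correction, -0.014 with the block too and -0.11 without WT replicate 3 (0.24 without WT replicate 1 at the other end). *Efna4* was at -0.015, -0.21, -0.039, -0.039 with the block too and -0.0057 without WT replicate 1 (0.15 without WT replicate 2). *Efnb2* was at -0.082 with the sum, and *Sema7a* at 0.0096 without WT replicate 1.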

Other observations

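*Crmp1* was the 1 gene of the pathway list that was above 1 FPKM in every WT library and listed at 0 in every MSTN-KO library, and the genes that follow it on chromosome 5 were lower as well. *Crmp1* (37241940 to 37292133) overlaps *Evc* (37289098 to 37336894) in the annotation, and *Evc2* (37338499 to 37425055) comes next. Both are genes of the base of the primary cilium, where they take part in Hedgehog signalling. *Evc* had 8.603, 7.63 and 7.47 FPKM in WT and 1.74, 1.66 and 1.83 FPKM in MSTN-KO, a log2 change of -1.70 ± 0.15 (SE) and adjusted p = 6.16e-06. *Evc2* had 7.49, 7.13 and 5.84 FPKM in WT and 2.06, 1.71 and 2.24 FPKM in MSTN-KO, a log2 change of -1.38 ± 0.16 (SE) and adjusted p = 7.47e-05. These neighbours were chosen after their values were seen. The sources used here do not say whether the counting used strand, so the split of reads between overlapping genes is uncertain.

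*Hgf*, the gene of hepatocyte growth factor, lies between *Sema3e* and *Sema3c* on chromosome 5 and differed in direction from them. It had 2.55, 1.71 and 1.34 FPKM in WT and 6.89, 4.75 and 2.68 FPKM in MSTN-KO, a log2 change of 0.96 ± 0.25 (SE) and adjusted p = 0.0186. Like the semaphorin genes beside it, it was lowest in MSTN-KO replicate 3 among the MSTN-KO libraries. That library differed from the mean of the other MSTN-KO libraries by -0.873 for *Hgf*, and by -0.543 after the length and GC correction. For *Cacna2d1*, between *Sema3e* and *Hgf*, the corrected difference was 0.32. *Hgf* is neither a member nor a gene of the pathway list.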
